A study of Mus musculus with 8 samples.

Results

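The voltage-gated calcium channel genes, the voltage-gated sodium channel genes and the gene of the sodium leak channel were followed through single-nucleus RNA sequencing of the embryonic mouse cortex. They were taken by symbol alone (symbols that start with Cacn, or with Scn and a digit, and Nalcn), which gave 33 of the 14166 genes in the count table. The set holds 3 L-type, 3 P/Q-, N- or R-type and 3 T-type calcium alpha1 genes, 3 alpha2delta genes, 4 calcium beta genes, 7 gamma and TARP genes, 7 sodium alpha genes, 2 sodium beta genes and Nalcn. Another 8 symbols of these families (Cacna1s, Cacna2d4, Cacng6, Scn11a, Scn2b, Scn4a, Scn4b and Scn7a) were not analysed here. The study compared 4 wildtype samples with 4 Pantr2 knockout samples (Pantr2-/-), all dorsal telencephalon of C57BL/6J embryos at E15.5. Pantr2 is a gene for a long noncoding RNA, and the comparison asks what its loss does to gene expression in the developing cortex. The counts of Pantr2 itself were not analysed here, so the labels were not checked against it, and the allele is not described further. The labels do not say whether a sample is 1 embryo or a pool, so p-values measure the spread between these samples, which may in part be technical.

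Voltage-gated channels are built around a pore-forming alpha subunit that opens when the membrane depolarises. In calcium channels the alpha2delta and beta subunits help carry the pore to the cell surface and set how it opens, and most gamma genes encode TARPs, which act mainly as partners of AMPA-type glutamate receptors. Sodium alpha subunits carry the rising phase of the action potential, sodium beta subunits tune and anchor them, and Nalcn conducts a steady sodium leak that sets how close a neuron rests to firing. In the developing cortex calcium entry through these channels is known to influence migration, dendrite growth and the survival of young neurons.

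Each sample held 7280 to 10921 nuclei and 20446698 to 34083796 UMIs (unique molecular identifiers, each standing for 1 captured transcript), with a median of 2570 to 2905 UMIs per nucleus. The 28 pairs of libraries shared 8 to 30 cell barcodes, at most 0.371% of the smaller library. The 7 clusters deposited with the nuclei were used as they stand. Judged by markers listed for this work, cluster 1 was upper-layer excitatory neuron-like (Cux1, Cux2 and Pou3f1 highest there), clusters 2 (Bcl11b, Ldb2, Fezf2) and 3 (Tle4, Sox5, Foxp2, Hs3st4, Tbr1) were deep-layer excitatory neuron-like, and cluster 4 was apical progenitor-like. Not all markers of these lists agreed: the upper-layer markers Rorb and Lhx2 peaked in clusters 2 (714 CPM) and 5 (236 CPM). The deep-layer marker Crym peaked in cluster 7 (61.9 CPM). In cluster 5 the intermediate progenitor markers Gadd45g, Btg2, Neurog2 and Eomes were highest, but so were the migrating-neuron markers Rnd2 and Unc5d, and Unc5d was the only listed marker among its 10 leading genes, so it stayed unnamed. Clusters 6, led by Tafa1, Grik1 and Nell1, and 7, led by Kctd16, Gm32647 and Zfp385b, stayed unnamed too. Of the lists named for cluster 5, 1 intermediate progenitor marker peaked in cluster 1 and 2 migrating-neuron markers peaked in cluster 7. No marker of the excitatory neuron, progenitor or interneuron lists that is in the table was at 0 UMIs over all 8 samples together, in any cluster.

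Most channel genes stood higher, on average, in the excitatory neuron-like clusters than in the apical progenitor-like cluster, and the genes differed in which cluster held the most. Levels are CPM (counts per 1000000 UMIs), from UMIs summed over the nuclei of a sample and cluster, given as the mean of the 4 wildtype samples, and they are compared between clusters within a gene and not between genes. They are a description, since the clusters were made from the same counts. Of the 33 genes, 29 reached 10 CPM in at least 1 cluster. Below that level, Cacna1f, Cacng1 and Scn10a, which are best known from retina, skeletal muscle and sensory neurons, peaked between 0.344 and 4.34 CPM. Of the 29, 9 peaked in cluster 6, and clusters 3 and 7 held the peak of 8 and 7. Cluster 4 held that of 3, clusters 1 and 2 that of 1 each, and 15 of the 29 were lowest in cluster 4. Among 10154 genes of the table that reached the same level, 9.86% peaked in cluster 6, and the shares for clusters 3, 7 and 4 were 7.34%, 8.46% and 41.0%. The highest cluster exceeded the lowest by a median factor of 5.88 over the 29 genes, from 1.56 for Cacng7 to 25.3 for Cacng5. For 18 of the 29 the wildtype samples of the highest cluster lay wholly above those of the next, and in 26 the same cluster was highest in the knockout samples.

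**Figure D1:**
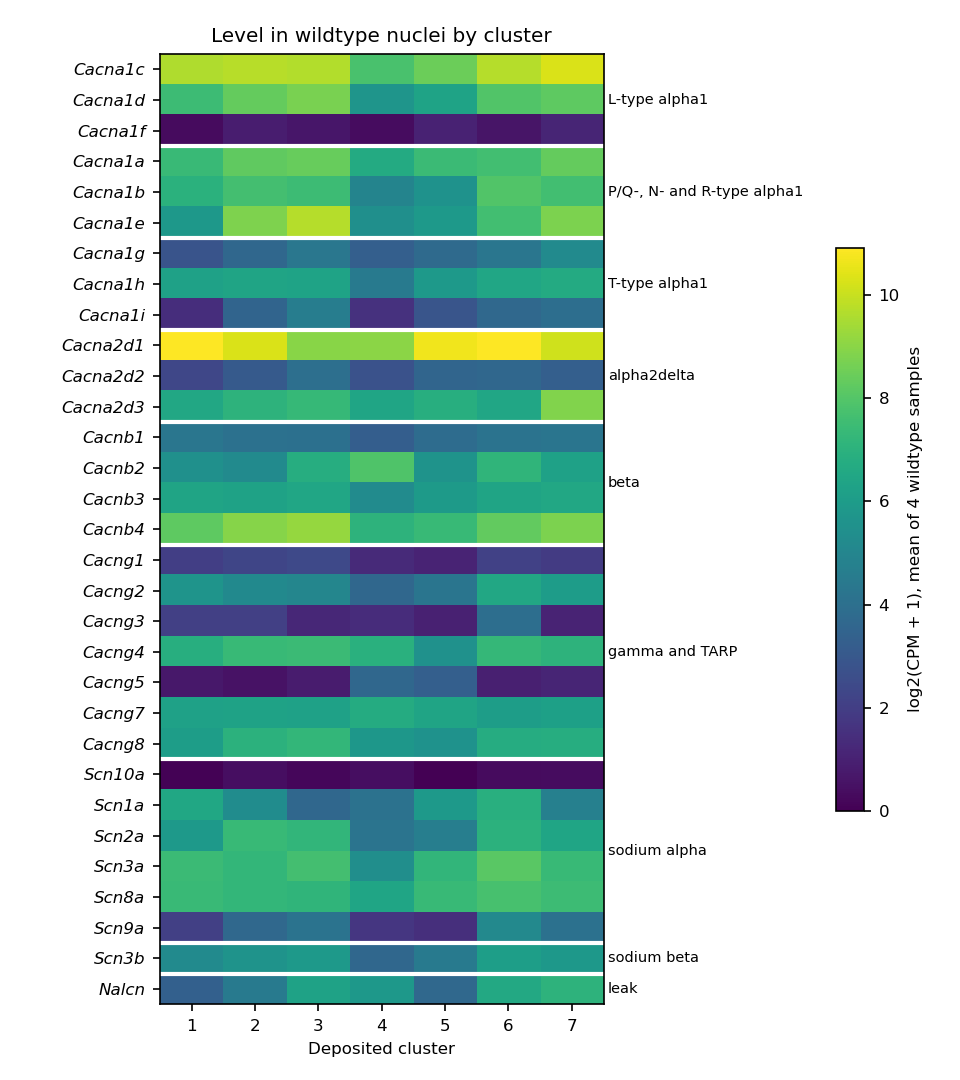
Level of 31 of the 33 channel genes (rows, grouped by role) in each of the 7 deposited clusters (columns), as log2(CPM + 1) of the mean over 4 wildtype samples; rows are read across, since levels are not compared between genes. Cluster 4 is the darkest column for 15 rows, with Cacnb2, Cacng5 and Cacng7 as rows that are brightest there.

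Among the calcium pore genes, Cacna1c, the main L-type pore of brain and heart, stood at 1261 ± 76.3 CPM (SD, n = 4 here and for the other levels) in cluster 7 and at 218 ± 34.6 CPM in cluster 4. Cacna1d, the L-type pore that opens at lower voltages, was highest in cluster 3 at 421 ± 24.0 CPM and lowest in cluster 4 at 50.9 ± 9.64 CPM. The steepest pattern among the pores was that of Cacna1e, the R-type pore, with 838 ± 44.1 CPM in cluster 3, 447 ± 58.5 CPM in cluster 2 and 42.9 ± 13.5 CPM in cluster 4. Both deep-layer-like clusters thus stood far above the upper-layer-like cluster, where Cacna1e was at 55.7 ± 7.36 CPM and overlapped with clusters 4 and 5. Cacna1a, the P/Q-type pore of fast synapses, ranged less widely, from 101 CPM in cluster 4 to 336 CPM in cluster 3, where it overlapped with cluster 7. The N-type pore Cacna1b was highest in cluster 6 at 245 CPM and lowest in cluster 4 at 29.8 CPM. The 3 T-type pores, which open near the resting potential, did not share a pattern: Cacna1g was highest in cluster 7 (36.7 CPM, against 6.25 CPM in cluster 1), Cacna1h varied from 21.3 CPM in cluster 4 to 100.1 CPM in cluster 7, and Cacna1i was highest in cluster 3 (23.9 CPM) and lowest in cluster 1 (1.69 CPM).

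The auxiliary calcium channel genes included the members that were highest in cluster 4. Cacnb2, a beta subunit known best from heart, stood at 241 ± 10.0 CPM in cluster 4 and at 36.3 ± 4.65 CPM in cluster 2, while its relative Cacnb4 was highest in cluster 3 (579 CPM) and lowest in cluster 4 (132 CPM). Cacng5 reached 11.6 CPM in cluster 4 and 8.85 CPM in cluster 5 and stayed at or under 1.20 CPM in the 5 other clusters. Cacng7 was highest in cluster 4 at 104 CPM but differed little elsewhere, from 67.0 to 81.6 CPM. The alpha2delta genes ran in different directions: Cacna2d1, a known binding site of gabapentin, was highest in cluster 6 (1939 CPM) and cluster 1 (1890 CPM), which overlapped, and lowest in cluster 3 (507 CPM). Cacna2d3 was highest in cluster 7 at 463 ± 40.6 CPM, and the other clusters held 85.2 to 160 CPM. Cacna2d2 was low throughout, from 4.02 CPM in cluster 1 to 15.0 CPM in cluster 3, and each neighbour in its order overlapped the next. The remaining auxiliary genes were Cacnb1 (8.73 CPM in cluster 4 to 18.7 CPM in cluster 1), Cacnb3 (37.1 CPM in cluster 4 to 93.9 CPM in cluster 7), Cacng2 or stargazin (11.4 CPM in cluster 4 to 92.8 CPM in cluster 6), Cacng3 (1.03 CPM in cluster 5 to 14.4 CPM in cluster 6), Cacng4 (44.6 CPM in cluster 5 to 175 CPM in cluster 3) and Cacng8 (46.2 CPM in cluster 5 to 148 CPM in cluster 3).

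The sodium channel genes that reached 10 CPM were lowest in clusters 4 or 5, except Scn1a, whose lowest cluster was 3. Scn2a, the main sodium pore of young cortical axons, peaked in cluster 2 at 165 ± 15.0 CPM. Clusters 3 (147 ± 10.9 CPM) and 6 (127 ± 12.6 CPM) came next, each overlapping its neighbour in that order, and cluster 4 was lowest at 17.5 ± 2.74 CPM. Scn3a, a pore typical of the fetal brain, was highest in cluster 6 (275 CPM) and lowest in cluster 4 (41.1 CPM). Scn1a, best known from inhibitory interneurons and Dravet syndrome, stood at 118 CPM in cluster 6 and 89.1 CPM in cluster 1 but at 11.5 CPM in cluster 3. Scn8a, the pore of mature axon initial segments, varied from 84.0 CPM in cluster 4 to 215 CPM in cluster 6. Scn9a, best known from pain-sensing neurons, reached 34.1 CPM in cluster 6 and 1.77 CPM in cluster 5. The beta gene Scn3b lay between 11.6 CPM in cluster 4 and 68.1 CPM in cluster 6. Nalcn was highest in cluster 7 at 132 ± 13.8 CPM and lowest in cluster 1 at 9.22 ± 4.27 CPM, with 56.4 ± 9.58 CPM in the apical progenitor-like cluster 4. The genes whose wildtype pattern was most like that of Scn2a over the 28 sample and cluster values of log2(CPM + 1) were Celf2 (Pearson r = 0.974), Lrfn5 (r = 0.973) and Dnm3 (r = 0.969), and among the channel genes Cacna1d (r = 0.959) and Cacna1b (r = 0.948), values that share the same libraries and clusters.

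In the Pantr2 knockout samples, sodium channel genes fell, most in cluster 2, and a few calcium channel genes moved in either direction. Knockout was compared with wildtype by edgeR's quasi-likelihood test on UMIs summed per sample, over all nuclei and in each cluster, with Benjamini-Hochberg adjustment over all genes tested and a threshold of 0.05, and the same test stands behind each adjusted p below unless another is named. Over these 8 fits 12 of the 33 genes passed at least once, with 22 calls in 221 tests: 3 genes rose (Cacna1e, Cacna1g, Cacna2d3), 9 fell (Scn1a, Scn2a, Scn3a, Scn9a, Cacna2d1, Cacna2d2, Cacna1b, Cacng3, Nalcn) and none did both. The share of all genes that passed at least once was not computed, so these counts are read only fit by fit, below. In 20 of the 22 calls no knockout sample overlapped a wildtype sample. Passing the test with 4 samples per group favours such separation, so here and below it describes the calls and adds no support.

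The calls were spread unevenly over the clusters. Over all nuclei 5 of 32 tested members passed, where 5.26% of all genes did. Of these 5, 1 rose, where 1.67% of all genes did, and 4 fell, where 3.58% did. Cluster 2 held 9 called members of 28, where 9.11% of all genes passed. There 2 rose, where 3.92% of all genes did, and 7 fell, where 5.19% did. Cluster 1 had 2 of 26 (4.84% of all genes), and cluster 3 had 3 of 28 (3.36%). Clusters 4, 5 and 7 had 1 of 26 (4.29%), 1 of 26 (1.77%) and 1 of 27 (1.03%). Cluster 6 had 0 of 28 by edgeR (0.779% of all genes), with 2 at an unadjusted p under 0.05, where 9.91% of all genes were, and DESeq2 called 0 as well. Clusters 4 to 7 held at most 1 called member each, too few to read against the share of all genes. Channel genes are long, with a median span of 111 kb against 29.3 kb for the 14162 genes matched to the annotation, and long genes were called more often: of genes spanning at least 100 kb, 26.0% passed in cluster 2 and 12.3% over all nuclei. Members of that length passed in 8 of 18 cases in cluster 2 and 4 of 18 over all nuclei. The median log2 change of the members was -0.13 over all nuclei, where that of all genes was 0.00, and -0.07 in cluster 2, where that of all genes was also 0.00.

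**Figure D2:**
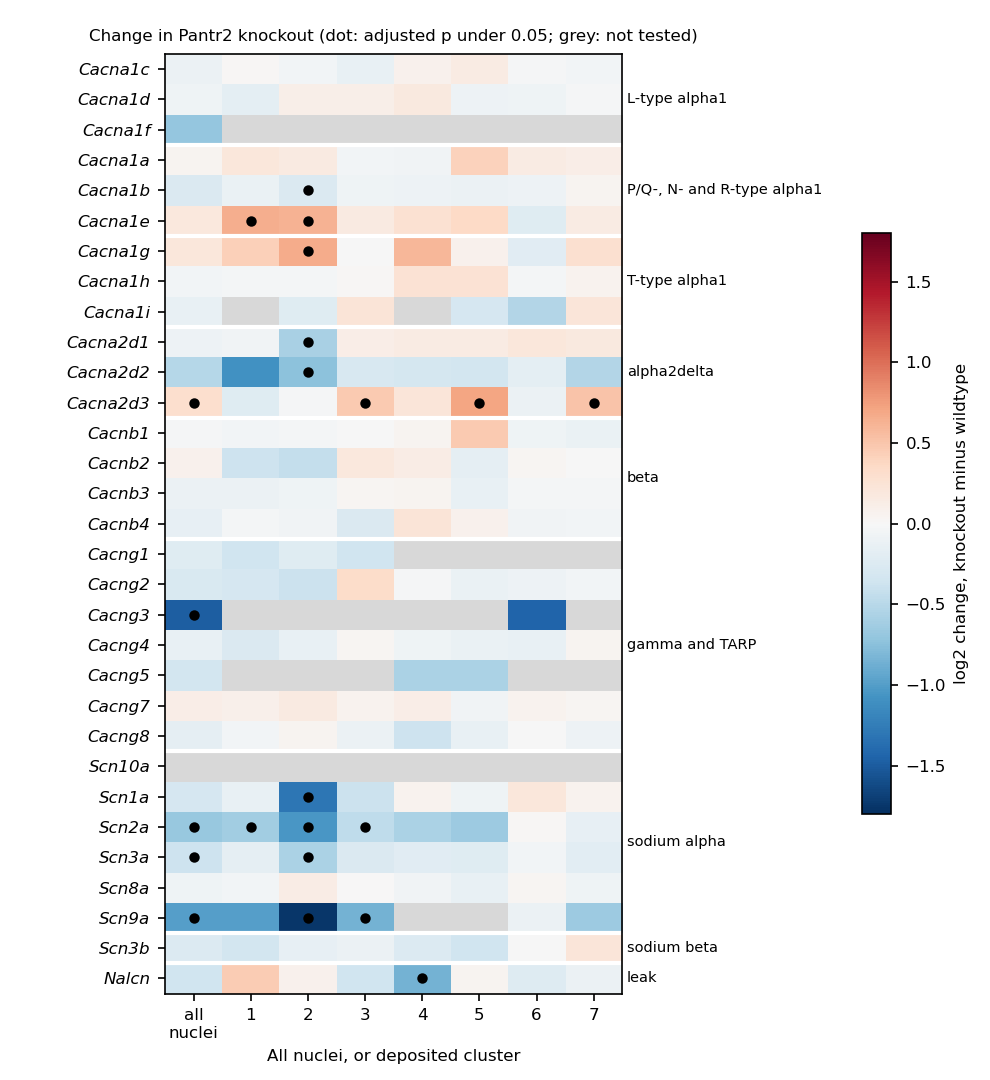
Log2 change from wildtype to Pantr2 knockout (colour) for 31 of the 33 channel genes (rows) over all nuclei and in clusters 1 to 7 (columns), 4 samples per group; dots mark an adjusted p under 0.05 and grey cells were not tested. Cluster 2 holds 9 of the 22 dots, and cluster 6 holds 0.

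The block of sodium channel genes on chromosome 2 fell in cluster 2. Scn3a, Scn2a, Scn1a and Scn9a lie within chr2:65457118-66634962 (GRCm38, 1.178 Mb) and all 4 passed there. Scn2a stood at 177, 148, 159 and 179 CPM (scaled by TMM factors, as are the values below) in wildtype samples 1 to 4 and at 82.1, 60.9, 76.2 and 103 CPM in knockout samples 1 to 4. No knockout sample reached the lowest wildtype sample, and Scn2a fell by 1.05 ± 0.13 on the log2 scale (± SE, adjusted p = 0.000211). For Scn1a the samples gave 52.2, 28.1, 30.5 and 44.6 CPM in wildtype and 18.4, 13.1, 10.4 and 22.6 CPM in knockout, a fall of 1.31 ± 0.24 (log2, adjusted p = 0.00324). Scn9a gave 14.5, 11.1, 7.69 and 14.0 CPM in wildtype and 3.68, 2.47, 1.76 and 6.55 CPM in knockout, a fall of 1.75 ± 0.32 (log2, adjusted p = 0.00343) that rests on 212 and 60 UMIs in all. Scn3a gave 179, 127, 133 and 165 CPM in wildtype and 104, 91.6, 90.1 and 121 CPM in knockout and fell by 0.58 ± 0.12 (log2, adjusted p = 0.00773). In each of the 4 genes the groups did not overlap. Samples 1 and 4 were the highest of their group in all 4 genes, in wildtype and in knockout alike.

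Other genes lie in the same stretch. In cluster 2, Csrnp3, a gene for a nuclear protein between Scn2a and Scn1a, fell by 0.94 ± 0.11 (log2, adjusted p = 0.000211). Its neighbour Ttc21b, a gene of cilia transport, changed by -0.24 ± 0.08 (adjusted p = 0.0856), and Galnt3 and Gm13629 had too few UMIs in cluster 2 to be tested. Gm13629 overlaps Scn9a on the opposite strand, and whether the counting used strand is not given in the sources used here, so their UMIs may be mixed. The same holds for Cacna1c with Dcp1b, Cacna1d with Chdh and Dcp1a, Cacnb4 with A430018G15Rik, Cacng2 with A730060N03Rik and Cacng4 with Gm11650.

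**Figure D3:**
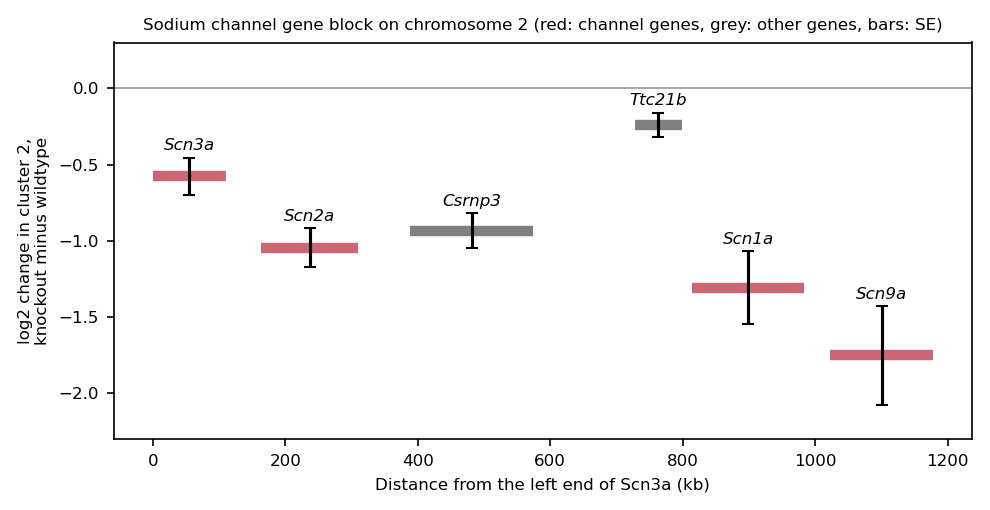
Log2 change in cluster 2 from wildtype to Pantr2 knockout (vertical axis, bars: SE) of the 6 genes tested in the sodium channel gene block on chromosome 2, each drawn over its span in kb from the left end of Scn3a. The 4 channel genes (red) and Csrnp3 lie between -0.58 and -1.75, and Ttc21b at -0.24.

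The starts of these genes show what sequence lies upstream of genes that moved together. The 250 bases before the start are given for Scn2a (chr2:65620519-65620768, plus strand, 1 of the 2 starts in the table), Scn1a (chr2:66440838-66441087, minus strand) and Scn9a (chr2:66634963-66635212, minus strand), from RefSeq on GRCm38.p6, 5′ to 3′, with E-boxes in capitals, and Scn3a is named only. As a whole gene, Scn9a reaches 66635114 in RefSeq, so its window lies partly inside the gene, before a more internal start. Scn2a begins at 65620764 there, so the last bases of its window lie inside that gene too.
Scn2a: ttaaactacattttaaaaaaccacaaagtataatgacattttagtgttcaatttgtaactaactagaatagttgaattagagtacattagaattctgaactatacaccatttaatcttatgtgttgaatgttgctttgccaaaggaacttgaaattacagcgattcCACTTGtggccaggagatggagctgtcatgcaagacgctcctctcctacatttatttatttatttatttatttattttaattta
Scn1a: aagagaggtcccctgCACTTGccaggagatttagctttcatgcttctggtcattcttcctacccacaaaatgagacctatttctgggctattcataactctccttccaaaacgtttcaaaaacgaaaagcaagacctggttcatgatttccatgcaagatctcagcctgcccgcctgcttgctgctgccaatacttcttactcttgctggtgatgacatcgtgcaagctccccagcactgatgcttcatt
Scn9a: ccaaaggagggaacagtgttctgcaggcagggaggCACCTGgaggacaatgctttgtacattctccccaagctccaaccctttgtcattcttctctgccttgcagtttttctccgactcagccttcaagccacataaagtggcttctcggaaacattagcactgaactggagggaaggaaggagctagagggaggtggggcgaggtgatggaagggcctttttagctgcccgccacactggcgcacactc
The E-box, CANNTG, is the core recognised by basic helix-loop-helix factors such as the neurogenins, and each window held 1, searched on both strands. Of the 32851 windows of that length in the table, 66.2% hold at least 1. None of the 3 held TATAAA (12.4% of windows) or GGGCGG (32.7%), and Scn1a alone held CCAAT (33.9%). Base composition differed, with 29.6% G or C for Scn2a, 46.8% for Scn1a and 54.4% for Scn9a. The longest run shared by the windows of Scn2a and Scn1a was GCCAGGAGAT, which starts 2 bases after the E-box in Scn2a and overlaps the last base of the E-box in Scn1a, and which 38 of the windows (0.116%) hold on either strand and that of Scn9a does not. These matches describe letters and show no binding.

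Outside cluster 2 the sodium channel genes fell less or did not pass. In cluster 1 Scn2a stood at 59.3, 52.3, 58.6 and 57.0 CPM in wildtype and 39.8, 34.3, 30.4 and 44.1 CPM in knockout, without overlap, and fell by 0.63 ± 0.11 (log2, adjusted p = 0.00271). In cluster 3 it stood at 150, 135, 143 and 157 CPM against 105, 83.7, 105 and 132 CPM, again without overlap, and fell by 0.46 ± 0.11 (log2, adjusted p = 0.0338). Scn9a fell in cluster 3 as well, from 18.7, 15.7, 12.6 and 19.6 CPM to 10.9, 7.79, 9.42 and 9.08 CPM, by 0.85 ± 0.17 (log2, adjusted p = 0.0133). In clusters 6 and 7 the log2 change of Scn2a was 0.03 ± 0.13 (adjusted p = 0.981) and -0.15 ± 0.12 (adjusted p = 0.797), with samples that overlapped. The call of Scn2a in cluster 3 was lost without any 1 of wildtype samples 1, 3 and 4 and knockout samples 1, 2 and 3 (adjusted p = 0.0558 to 0.107), and that of Scn9a without knockout sample 2 (adjusted p = 0.0610). With the replicate number as a block 6 members passed in cluster 3 in place of 3, Scn3a (-0.25, adjusted p = 0.0185), Nalcn (-0.35, adjusted p = 0.0130) and Cacnb4 (-0.26, adjusted p = 0.0226) among them, where 5.48% of all genes passed.

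Whether a change in 1 cluster differed from that in the others was tested with limma on each sample's log2 level in the cluster minus its mean over the 6 other clusters, for 24 members and 9775 genes. In cluster 2, 6 members passed, where 6.04% of all genes did. The change of Scn1a there lay 1.20 below that in the other clusters (log2 difference -1.20, adjusted p = 0.000870), that of Scn2a 0.64 below (-0.64, adjusted p = 0.000533) and that of Scn3a 0.37 below (-0.37, adjusted p = 0.0134). Scn9a was not among the genes with enough UMIs in every cluster. The difference for Scn3a was lost without wildtype sample 1 (adjusted p = 0.0524) or 4 (adjusted p = 0.0618), and those for Scn1a and Scn2a held without any 1 sample. In cluster 6 no member passed by limma (0.0409% of all genes), with 6 of 24 at an unadjusted p under 0.05, where 7.66% of all genes were, and Scn2a at 0.61 (adjusted p = 0.166). With the replicate number as a block, Scn2a (0.61, adjusted p = 0.0201) and Cacna1e (-0.57, adjusted p = 0.0485) did pass in cluster 6, where 0.685% of all genes did, so that the change of Scn2a there lay above that in the other clusters.

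**Figure D4:**
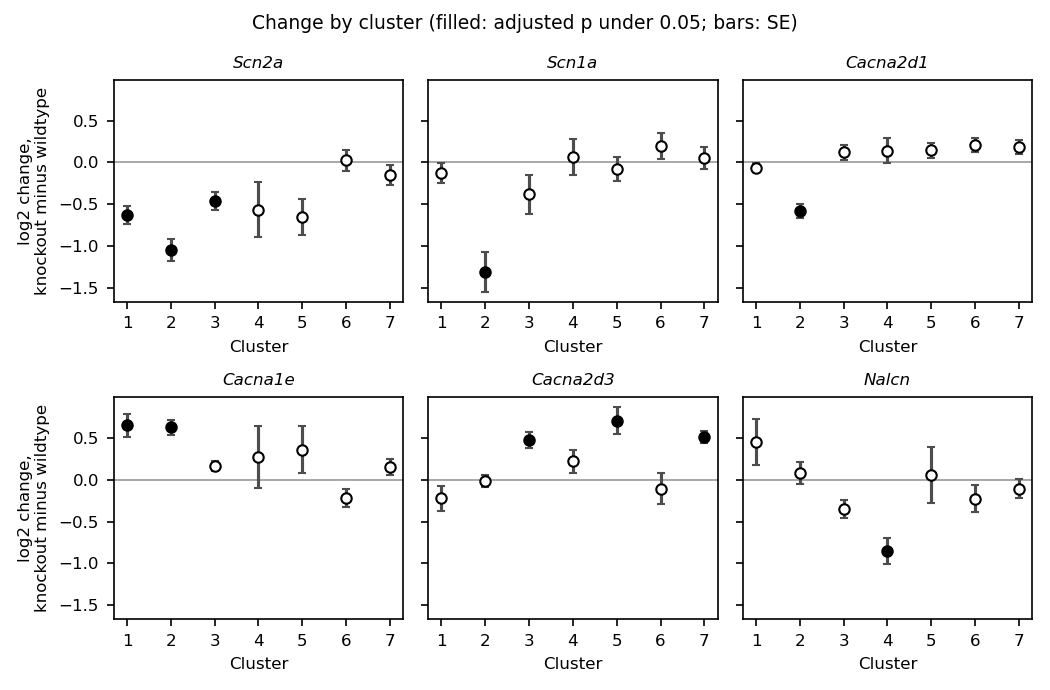
Log2 change from wildtype to Pantr2 knockout (vertical axis, bars: SE) in each of the 7 clusters for Scn2a, Scn1a, Cacna2d1, Cacna1e, Cacna2d3 and Nalcn; filled points have an adjusted p under 0.05. Scn1a and Cacna2d1 are filled in cluster 2 only, Nalcn in cluster 4 only, and Cacna2d3 in clusters 3, 5 and 7.

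Among the calcium channel genes, Cacna1e rose in clusters 1 and 2. In cluster 2 it stood at 382, 439, 534 and 435 CPM in wildtype and at 662, 681, 733 and 687 CPM in knockout, without overlap, and rose by 0.63 ± 0.09 (log2, adjusted p = 0.000591). In cluster 1, where its level was lower, it stood at 53.6, 50.4, 67.5 and 49.9 CPM against 113, 69.4, 90.1 and 80.0 CPM and rose by 0.65 ± 0.14 (log2, adjusted p = 0.0121). The lowest knockout sample of cluster 1 lay only just above the highest wildtype sample, and the call there was lost without wildtype sample 4 (adjusted p = 0.0520) or knockout sample 3 (adjusted p = 0.0502). In cluster 3, where Cacna1e was highest, its change was 0.16 ± 0.07 (adjusted p = 0.243). Cacna1g, a T-type pore, rose in cluster 2 from 10.6, 10.6, 14.0 and 10.8 CPM to 16.2, 18.2, 21.6 and 16.7 CPM, by 0.67 ± 0.14 (log2, adjusted p = 0.00866), again without overlap.

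Cacna2d1, Cacna1b and Cacna2d2 fell in cluster 2. Cacna2d1 stood at 1467, 1213, 1128 and 1306 CPM in wildtype and at 902, 897, 778 and 839 CPM in knockout, a fall of 0.58 ± 0.08 (log2, adjusted p = 0.000672). Cacna1b stood at 193, 201, 202 and 205 CPM against 162, 165, 168 and 172 CPM, a fall of 0.27 ± 0.06 (log2, adjusted p = 0.0102), the smallest change among the 22 calls. Cacna2d2 stood at 8.44, 6.07, 6.75 and 8.47 CPM against 4.29, 3.79, 5.51 and 4.37 CPM, a fall of 0.74 ± 0.20 (log2, adjusted p = 0.0356). The groups did not overlap for any of the 3. The call of Cacna2d2 did not pass with DESeq2 (adjusted p = 0.113) or without any 1 of wildtype samples 1 and 4 and knockout samples 1, 2 and 4 (adjusted p = 0.0732 to 0.112).

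By the limma test of the difference, the change of Cacna2d1 in cluster 2 lay below that in the other clusters (log2 difference -0.69, adjusted p = 0.000143), and those of Cacna1e (0.44, adjusted p = 0.0458) and Cacna1g (0.47, adjusted p = 0.0462) lay above. The difference for Cacna2d1 held without any 1 sample. That for Cacna1e was lost without any 1 of the wildtype samples and knockout samples 2 and 3 (adjusted p = 0.0511 to 0.149). With the replicate number as a block Cacnb2 (-0.38, adjusted p = 0.0392) passed in cluster 2 too, where 6.81% of all genes did. The difference for Cacna1g was lost with the replicate number as a block (adjusted p = 0.0551) and without any 1 sample but knockout sample 1 (adjusted p = 0.0659 to 0.150). In cluster 1 the test called 1 member, Cacna1e (0.46, adjusted p = 0.0216), where 1.54% of all genes passed, and it did not pass without wildtype samples 2 or 4 or knockout samples 1 or 3 (adjusted p = 0.0527 to 0.105). With the replicate number as a block, Nalcn (0.74, adjusted p = 0.00378) and Cacna2d3 (-0.51, adjusted p = 0.000329) passed in cluster 1 too, where 2.56% of all genes did. In cluster 3 it called Cacnb4 (-0.28, adjusted p = 0.0266), where 1.28% of all genes passed, and Cacna1a as well with the block (-0.22, adjusted p = 0.0453, where 2.40% of all genes passed). The difference for Cacnb4 was lost without wildtype samples 1 or 4 or knockout samples 1 or 2 (adjusted p = 0.0597 to 0.119).

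**Figure D5:**
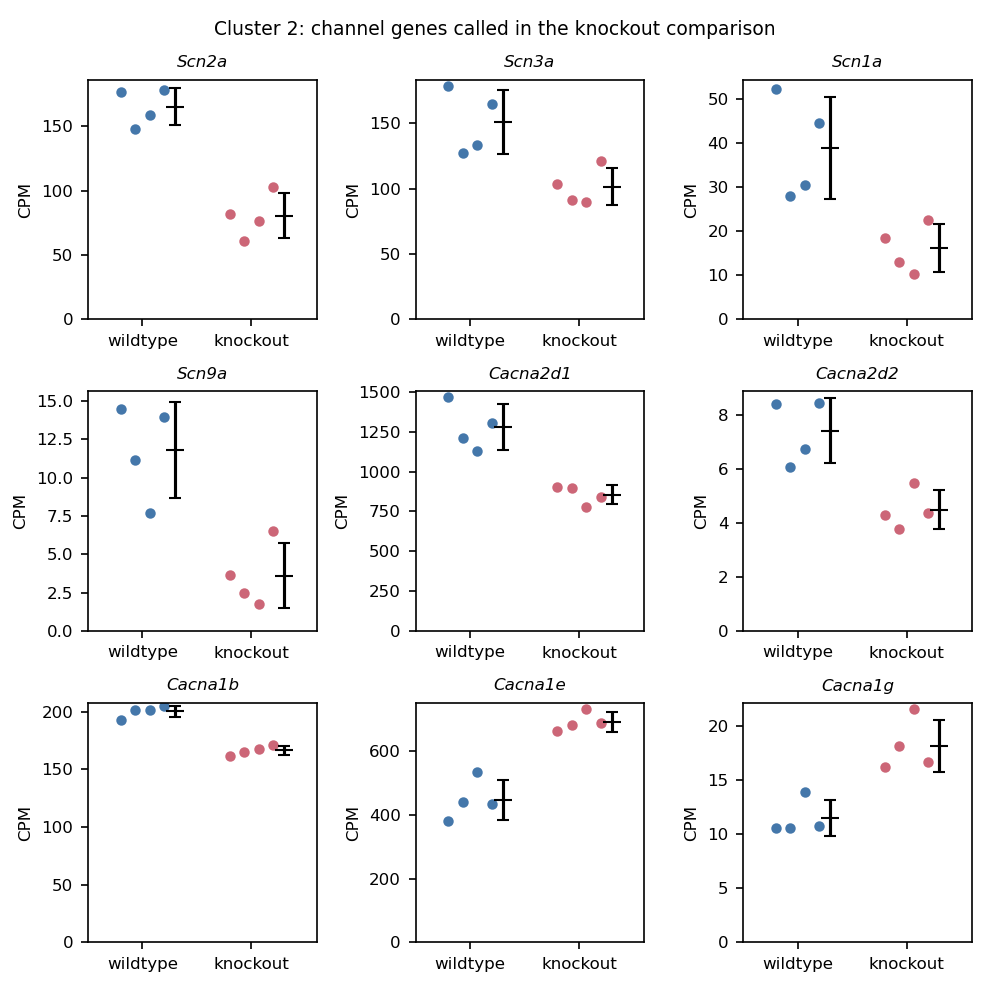
Levels in cluster 2 (CPM, vertical axes start at 0) of the 9 channel genes called there, 1 point per sample (blue: 4 wildtype, red: 4 Pantr2 knockout), with the mean and SD of each group beside the points. No knockout point overlaps the wildtype points in any panel, and Cacna1e and Cacna1g are the 2 genes that are higher in knockout.

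Marker genes of layers moved in cluster 2 together with the channel genes. Of 6 tested upper-layer markers 5 were lower in the knockout samples, Cux1, Cux2, Pou3f1 and Rorb among them, and the list's summed level was 2690 to 4329 CPM in wildtype and 1088 to 1636 CPM in knockout. Of 9 deep-layer markers 4 were higher (Sox5, Tbr1, Bcl11b, Hs3st4), with sums of 8160 to 9844 CPM and 11238 to 13278 CPM. Interneuron markers were low, and 3 of 7 tested fell (Dlx2, Dlx5, Lhx6), with sums of 59.0 to 70.4 CPM and 24.6 to 53.3 CPM. In cluster 1 the upper-layer list was lower too (4 of 6, 6129 to 7200 CPM against 3662 to 5315 CPM), as was the interneuron list (4 of 7, 59.6 to 87.5 CPM against 25.3 to 47.0 CPM), and the deep-layer list was higher (4 of 9, 2500 to 2981 CPM against 3742 to 5111 CPM). In cluster 3 no upper-layer marker passed (0 of 6, 1193 to 1450 CPM against 969 to 1358 CPM), 1 of 9 deep-layer markers rose (Tbr1) and 2 of 7 interneuron markers fell (Dlx5, Dlx6os1, 54.4 to 78.0 CPM against 21.8 to 57.2 CPM). The 9 genes called in cluster 2 were set beside their wildtype levels in clusters 1 and 3. Cacna1e and Cacna1g, higher in wildtype cluster 3 than in cluster 1, rose, and Cacna2d1 and Scn1a, lower in cluster 3 than in cluster 1, fell. The other 5, which fell, stood higher in cluster 3 than in cluster 1, such as Scn2a with 147 and 57.3 CPM and Scn9a with 16.8 and 3.19 CPM. Of these 5, Scn2a (165 CPM) and Cacna1b (200 CPM) stood higher in wildtype cluster 2 than in clusters 1 and 3. Scn3a (151 CPM) stood lower there than in both, and Scn9a and Cacna2d2 lay between. The part of the markers' change in that of the channel genes was not tested.

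Cacna2d3, whose alpha2delta subunit is known from synapse formation and hearing, rose in clusters 3, 5 and 7. In cluster 7, where it was highest, it stood at 466, 483, 411 and 487 CPM in wildtype and 656, 665, 644 and 657 CPM in knockout, without overlap, a rise of 0.51 ± 0.07 (log2, adjusted p = 0.00108) that passed under all 13 alternatives run. In cluster 3 it stood at 141, 158, 174 and 163 CPM against 212, 258, 233 and 180 CPM, a rise of 0.47 ± 0.10 (log2, adjusted p = 0.0177) lost without wildtype sample 1 or knockout samples 2 or 3 (adjusted p = 0.0505 to 0.0656). In cluster 5 it stood at 102, 137, 126 and 92.3 CPM against 221, 177, 131 and 216 CPM and rose by 0.71 ± 0.16 (log2, adjusted p = 0.0368). Knockout sample 3 lay among the wildtype samples there. That call was lost with the replicate number as a block (adjusted p = 0.0611), with Xist as a covariate (adjusted p = 0.0594) and without any 1 sample other than wildtype sample 2 or knockout sample 3 (adjusted p = 0.0755 to 0.143). In clusters 1, 2 and 6 its changes were -0.22, -0.02 and -0.11, with adjusted p = 0.533, 0.946 and 0.920. The deep-layer marker sum was also higher in knockout in cluster 5 (2483 to 2702 CPM against 3056 to 3972 CPM). It was higher in cluster 7 too (2882 to 3167 CPM against 3234 to 3961 CPM), where Sox5 rose. That sum was likewise higher in clusters 1, 2 and 6, where Cacna2d3 was not called (cluster 6: 2302 to 2419 CPM against 2710 to 3087 CPM). In cluster 3, where Cacna2d3 rose, the marker sums of the groups overlapped (14517 to 15548 CPM against 13903 to 15444 CPM). The part of these markers was not tested. Neither the difference in cluster 5 (0.56, adjusted p = 0.141) nor that in cluster 7 (0.35, adjusted p = 0.140) from the other clusters passed by limma, where 0.338% and 0.522% of all genes did. No member passed in these 2 clusters, and 4 and 5 of 24 had an unadjusted p under 0.05, where 8.35% and 8.57% of all genes had one.

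Nalcn was the only channel gene called in the apical progenitor-like cluster 4. It stood at 67.6, 50.4, 47.6 and 58.5 CPM in wildtype and at 40.7, 29.4, 27.6 and 26.0 CPM in knockout, without overlap, and fell by 0.85 ± 0.15 (log2, adjusted p = 0.00712). All 13 alternatives run kept that call. Its change lay below that in the other clusters (limma, log2 difference -0.85, adjusted p = 0.0119, where 1.35% of all genes passed), and this was lost without wildtype sample 1 (adjusted p = 0.0575) or 4 (adjusted p = 0.0600). In cluster 7, where Nalcn was highest, its change was -0.11 ± 0.12 (adjusted p = 0.876). A second member passed in cluster 4 where 1 sample was left out: Cacna1g without wildtype sample 2 (0.86, adjusted p = 0.0183), Cacng5 without knockout sample 3 (-0.73, adjusted p = 0.0492) and Cacng8 without knockout sample 4 (-0.51, adjusted p = 0.0340). In the same cluster 3 of 9 apical progenitor markers fell (Slc1a3, Fabp7, Ednrb, list sum 2102 to 2564 CPM against 1659 to 1720 CPM), as did both oligodendrocyte lineage markers tested (Olig1 and Olig2, list sum 9.80 to 11.8 CPM against 1.65 to 3.07 CPM) and Pdgfrb (vessel marker list sum 35.3 to 38.0 CPM against 14.5 to 21.2 CPM). Their part in the change of Nalcn was not tested.

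Over all nuclei 5 channel genes passed, and here fewer nuclei of a kind and less RNA per nucleus cannot be told apart. Scn2a stood at 95.7, 83.3, 104 and 99.3 CPM in wildtype and 59.9, 43.9, 55.1 and 79.5 CPM in knockout and fell by 0.68 ± 0.15 (log2, adjusted p = 0.0311). Scn3a stood at 162, 151, 166 and 172 CPM against 127, 118, 119 and 141 CPM and fell by 0.37 ± 0.07 (log2, adjusted p = 0.0142). Scn9a stood at 13.1, 10.3, 12.3 and 11.0 CPM against 7.67, 4.18, 5.12 and 6.81 CPM and fell by 0.99 ± 0.17 (log2, adjusted p = 0.0123). None of these 3 overlapped between groups. Cacna2d3 rose by 0.30 ± 0.07 (log2, adjusted p = 0.0446), from 131, 148, 156 and 145 CPM to 178, 164, 173 and 199 CPM. Cacng3, a TARP, fell by 1.48 ± 0.37 (log2, adjusted p = 0.0475), from 3.86, 3.73, 2.21 and 3.81 CPM to 2.37, 0.824, 0.512 and 1.35 CPM, and knockout sample 1 lay above wildtype sample 3. Cacng3 was highest in cluster 6, where it changed by -1.44 ± 0.43 (adjusted p = 0.234) and passed only with the replicate number as a block (-1.47, adjusted p = 0.0254, where 2.40% of all genes passed). Knockout samples gave 314 to 623 nuclei of cluster 6 and wildtype samples 791 to 1028. Over all nuclei the upper-layer marker sum was 2635 to 3112 CPM in wildtype and 1669 to 2227 CPM in knockout (Rorb fell and Lhx2 rose among its markers), and 4 of 8 interneuron markers fell (list sum 66.8 to 99.9 CPM against 30.0 to 78.3 CPM). Their part in these calls was not tested.

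These calls over all nuclei depended on single samples and, for Cacna2d3, on a covariate: with Xist in the fit it did not pass (adjusted p = 0.0668). Without knockout sample 3 none of the 5 passed by edgeR, with adjusted p = 0.0515 for Scn9a, 0.0589 for Scn3a, 0.106 for Cacna2d3, 0.110 for Scn2a and 0.123 for Cacng3. Without knockout sample 2 only Scn9a did, and without wildtype samples 1 or 4 it was 2 members each. Among the fits without 1 sample, Cacna2d3 passed only where wildtype sample 3 was the one left out (otherwise adjusted p = 0.0601 to 0.109), Scn2a only without wildtype sample 2 or knockout sample 4 (otherwise 0.0560 to 0.110) and Cacng3 only without wildtype sample 3 or knockout sample 1 (otherwise 0.0610 to 0.160). When every cluster was scaled to its mean share of nuclei, the count was 4, Cacng3 was at adjusted p = 0.0747 and Scn3a at 0.0505, while Cacna1e (0.26, adjusted p = 0.0166) passed. With the replicate number as a block 11 members passed, where 9.65% of all genes did: Cacna2d2 (-0.52, adjusted p = 0.0121), Cacna1b (-0.26, adjusted p = 0.0201), Scn3b (-0.25, adjusted p = 0.0223), Nalcn (-0.38, adjusted p = 0.0340), Scn1a (-0.30, adjusted p = 0.0411) and Cacng2 (-0.26, adjusted p = 0.0482) were lower in addition. In cluster 1 the block brought 5 calls (6.86% of all genes), adding Cacng4 (-0.27, adjusted p = 0.0213), Cacnb2 (-0.36, adjusted p = 0.0257) and Cacna2d2 (-1.08, adjusted p = 0.0318). In cluster 2 it added Cacnb2 (-0.43, adjusted p = 0.0419).

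The other 21 members did not pass in any of the 8 fits. They include the L-type pores Cacna1c and Cacna1d (smallest adjusted p over 8 fits 0.285 for each), the P/Q-type pore Cacna1a (0.0868), the axonal sodium pore Scn8a (0.275), the beta subunit genes Cacnb1 to Cacnb4 (0.0612 for Cacnb2 the smallest) and the TARP genes Cacng2, Cacng4, Cacng7 and Cacng8 (0.0599 for Cacng4 the smallest). Log2 changes of Cacna1c lay between -0.14 and 0.14 and those of Scn8a between -0.13 and 0.13. Scn10a had too few UMIs for any fit.

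Partners of the channels and genes of calcium handling were taken from a list of 56, of which 49 are in the table. Over all nuclei 1 of 49 rose and 5 fell (5.26% of all genes passed, and 12.3% of those spanning at least 100 kb). Cabp1, a calcium-binding modulator of calcium channels, rose by 0.45 ± 0.10 (log2, adjusted p = 0.0262). Stac2 (-0.56), the presynaptic scaffolds Rims1 (-0.35) and Rimbp2 (-0.39), Fgf12 (-0.35), which binds sodium channels, and Fam155a (-0.32), a subunit of the Nalcn complex, fell, with adjusted p from 0.0311 to 0.0475. In cluster 1 Cabp1 rose (0.74, adjusted p = 0.00122) and Fam155a (-0.53, adjusted p = 0.000830) and Rims1 (-0.31, adjusted p = 0.0188) fell, of 45 tested. Of all genes, 4.84% passed there.

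In cluster 2, 6 of 46 such genes rose and 8 fell (30.4%, where 9.11% of all genes passed). Of genes spanning at least 100 kb, 26.0% passed there, and the spans of the listed genes were not compared. The smallest p was that of Itpr1, a calcium release channel of the endoplasmic reticulum, which fell from 687 ± 59.8 to 410 ± 21.4 CPM (SD, n = 4, without TMM factors) by 0.74 ± 0.07 (log2, adjusted p = 5.3e-05). Of 9 sodium channel partners at the axon initial segment 3 fell, Nrcam (-0.56, adjusted p = 0.000926) with the smallest p, and 1 rose, Nfasc (0.36, adjusted p = 0.00691). Of the sodium-calcium exchangers Slc8a1 fell (-0.35, adjusted p = 0.00693), while Slc8a2 (0.69, adjusted p = 0.00142) and Slc8a3 (0.37, adjusted p = 0.00838) rose. Rims1 (-0.51, adjusted p = 0.000565) and the calcium release channel Ryr1 (-0.70, adjusted p = 0.00274) fell, and Ryr2 (0.80, adjusted p = 0.0346) and the calcium pump Atp2b4 (0.46, adjusted p = 0.0194) rose. In cluster 3 the same list gave 4 of 46 calls (3.36% of all genes) and in cluster 4 it gave 2 of 47 (4.29%). Clusters 5, 6 and 7 gave 2 of 43 (1.77%), 1 of 42 (0.779%) and 0 of 42 (1.03%). Cabp1 rose in clusters 4 (0.79, adjusted p = 0.0198) and 5 (1.12, adjusted p = 0.000215), while Ryr2 fell in clusters 3 (-0.69, adjusted p = 0.0270) and 6 (-1.15, adjusted p = 0.0335).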

How the data were processed

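Single-nucleus RNA was counted in 8 samples, 4 wildtype and 4 Pantr2 knockout, grouped by their titles. The deposited values are UMI counts per gene and nucleus, whole numbers and not normalised, per the file headers. Kallisto and bustools with mm10 are named in the submitters' processing notes, with no version, and the filters on nuclei are not given in the sources used here. The authors deposited a cluster number and a doublet score per nucleus, a number with no unit, and every hybrid score is under 0.5, so no doublet caller was run and all 67319 nuclei were kept. The deposited totals per nucleus were 0.653% to 0.958% above the matrix sums. All samples carry the same library date. The deposited gene positions match GRCm38 for 0 of the 33 members, so the printed coordinates were taken from GENCODE M21 (GRCm38).

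The genes and lists were chosen with earlier results of these data known. For each sample, UMIs were added up over its nuclei and within each cluster. Genotype was tested with edgeR 4.0.16 (R 4.3.3; TMM, filterByExpr, glmQLFit, glmQLFTest) and differences between clusters with limma 3.58.1 (trend, prior count 2, genes that pass filterByExpr in all 7 clusters). P-values were adjusted by Benjamini-Hochberg over all genes of a fit, at 0.05. Both scripts were tested on simulated counts. Genes called in any genotype fit are given with every sample; the others with at least 10 CPM in a cluster are given by their lowest and highest cluster. Related genes were named where called, at most 5 per direction and fit. A few genes of the set and of the marker lists are not reported here by name. Alternatives were DESeq2 1.42.0, its size factors, no filter, a replicate block, Xist as a covariate (the sex of the embryos is not in the labels), leaving out each sample, clusters scaled to their mean share, and for the limma test a prior count of 0.5 and a mean of 10 UMIs.

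Both groups use the replicate numbers 1 to 4. Across genes, same-numbered samples deviated from their group means together, with correlations of 0.398, 0.185, 0.192 and 0.179, each over the 0.1 set for pairing. Different-numbered samples gave -0.356 to 0.287, with 3 of 12 pairs over 0.1, the highest being wildtype sample 3 with knockout sample 4. By that threshold alone the same-numbered samples count as pairs. The main tests had genotype as their only term and did not use this pairing. The replicate block was run as an alternative, so the blocked values stand beside each result they change.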

Additional observations from a re-analysis of the deposited data

Results flagged for a closer look

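The change in the knockout differed between 1 cluster and the 6 others for 8 channel genes by the limma test of that difference, all given in the report. In cluster 2 these were Scn1a (log2 difference -1.20), Cacna2d1 (-0.69), Scn2a (-0.64), Cacna1g (0.47), Cacna1e (0.44) and Scn3a (-0.37). Cacna1e also differed in cluster 1 (0.46), Cacnb4 in cluster 3 (-0.28) and Nalcn in cluster 4 (-0.85). In cluster 3 the genotype test itself did not call Cacnb4 (-0.26, adjusted p = 0.0652 by edgeR).

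Among the 44 groups of 4 samples behind the called values, 2 held a sample that stood apart by Dixon's test, and chance gives about 1 in 20. The lowest wildtype sample of Cacng3 over all nuclei, sample 3, was at 2.21 CPM, while the others lay between 3.73 and 3.86 CPM. The highest wildtype sample of Cacna1g in cluster 2, sample 3 again, was at 14.0 CPM, while the others lay between 10.6 and 10.8 CPM and all knockout samples lay above it.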

How the results depend on the processing

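Of the 22 called log2 changes, 11 passed under every alternative run (Scn2a in clusters 1 and 2, Scn1a, Scn3a, Scn9a, Cacna2d1, Cacna1b, Cacna1e and Cacna1g in cluster 2, Nalcn in cluster 4 and Cacna2d3 in cluster 7), 11 were lost under at least 1 and 0 reversed. Of the 9 differences between clusters, Scn1a, Scn2a and Cacna2d1 in cluster 2 passed throughout and 0 reversed. With the replicate number as a block the members called were 11 over all nuclei, and clusters 1, 3, 5 and 6 had 5, 6, 0 and 1. The members whose change differed from that in other clusters were 3, 2 and 2 for clusters 1, 3 and 6, where 2.56%, 2.40% and 0.685% of all genes passed with the block. Beyond the genes named in the report the block changed no other call. With Xist as a covariate 5 members were called in cluster 3 and 0 in cluster 5, the call of Cacna2d3 over all nuclei was lost as well (adjusted p = 0.0668 by edgeR), and DESeq2 called 2 in cluster 5, Cacna1a in addition. The shares of all genes called with Xist or by DESeq2 are not given here, and the cause of these shifts was not tested.

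Leaving out 1 sample gave 0 to 4 calls over all nuclei. Cluster 1 had 1 to 4, cluster 2 had 8 to 10, cluster 3 had 0 to 4, cluster 4 had 1 to 2, cluster 5 had 0 to 1, cluster 6 had 0 and cluster 7 had 1. The 4 calls in cluster 1 came without wildtype sample 3 or knockout sample 4, the 0 in cluster 3 without knockout sample 2, and the 0 over all nuclei without knockout sample 3. For differences between clusters cluster 1 had 0 to 2, cluster 2 had 3 to 7 (3 without wildtype sample 1 or 4), cluster 3 had 0 to 4 (4 without knockout sample 4), clusters 4 and 6 had 0 to 2, cluster 5 had 0 to 1 and cluster 7 had 0. Fewer samples also lower the power of each fit. The shares of all genes called without 1 sample are not given here, so these counts are not read against them. The cluster with the highest wildtype level was the same for 29 of 29 genes when each nucleus weighed the same and for 28 with TMM factors, Cacnb3 moving from cluster 7 to 3. Depth limits the lowest genes: Scn9a in cluster 2 rests on 60 knockout UMIs and Cacng3 in cluster 6 on 31.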

Other observations

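Summed over the genes of a role, wildtype levels differed most between clusters 4 and 6 for the 7 sodium alpha genes, with 164 ± 17.2 CPM and 771 ± 35.3 CPM (SD, n = 4). In cluster 2 their sum was 518 ± 56.7 CPM in wildtype and 365 ± 33.2 CPM in knockout, while in cluster 6 it was 771 ± 35.3 and 777 ± 32.1 CPM. The 3 alpha2delta genes summed to 1418 ± 155 CPM in wildtype and 988 ± 57.7 CPM in knockout in cluster 2, of which Cacna2d1 made up 1277 and 851 CPM. In cluster 7 they summed to 1603 ± 82.2 and 1911 ± 138 CPM. There Cacna2d1 made up 1131 and 1260 CPM and Cacna2d3 463 and 645 CPM, so the 2 sums rest on different genes. The P/Q-, N- and R-type pores summed to 955 ± 73.8 and 1198 ± 50.1 CPM in cluster 2, of which Cacna1e made up 447 and 688 CPM. The L-type pores gave 1172 ± 14.3 and 1168 ± 32.9 CPM there. These sums were not tested.

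Among the genes highest in the apical progenitor-like cluster 4, Cacng5 changed by -0.58 on the log2 scale there (adjusted p = 0.121 by edgeR) and Cacng7 and Cacnb2 did not pass either.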
